A study of Mus musculus with 6 samples.

Results

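The regions described here were called as enriched in exactly 1 of 4 wild-type sperm libraries and in neither mutant library. MNase-seq digests accessible DNA with micrococcal nuclease and sequences DNA of nucleosome size that survives, so an enriched region (a peak) is a place where nucleosomes were recovered from sperm. The peak lists of all 6 libraries were merged wherever they overlapped or touched, which gave 44743 regions, and 25963 of them (58.0%) met the rule and are called single-library regions. They were selected on the presence or absence of a call, so their number, strength and width are given as descriptions with no test. There were 4 libraries from wild-type C57BL/6 mice (WT 1 to WT 4) and 2 from mice carrying the K49A substitution in protamine 1 (K49A 1 and K49A 2). All sperm came from the epididymis and vas deferens and were treated with DNase I, opened with 50 mM DTT and digested with 5 and then 15 units of MNase. The series calls the libraries biological replicates, while the protocol states the sperm input per genotype only; the sources used here give neither the number nor the age of the animals used for each library.

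In mammalian sperm most histones are exchanged for protamines, small basic proteins that pack DNA tightly, and a minor part of the genome keeps nucleosomes. Retained nucleosomes are known from promoters rich in CpG, the dinucleotide CG that is rare in most of the genome and frequent in CpG islands, and from genes of embryonic development. A place called in every library and a place called in 1 library only therefore differ in how often the same enrichment was found again.

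The 4 lists gave unequal numbers of single-library regions. WT 1 held 1618, which is 14.3% of its 11313 peaks. WT 2 held 5099 (24.9% of 20458) and WT 3 held 5823 (26.2% of 22237). WT 4, the longest list, held 13423, or 48.1% of 27903 peaks. The mean share was 28.4 ± 14.2% of a list (SD, n = 4). Read depth is unknown, because the lists hold no counts. The background pileup that solves each peak's fold and p stands in for it only roughly. Its median was 4.26 for WT 1, 4.94 for WT 2, 5.00 for WT 3 and 5.58 for WT 4. The order of the WT lists by pileup, by length and by single-library share was thus the same. Pileup and length did not go together in the K49A lists. K49A 1 had a pileup of 4.19 and 700 peaks, and K49A 2 had 6.55 and 1017 peaks. The part of the pileup in the number of single-library regions was not tested. With every WT list cut to its strongest 11313 peaks the mean share was 28.2 ± 3.90% (SD, n = 4) and the regions numbered 12771. Without WT 4 there were 15899 regions called in 1 of the remaining 3 lists.

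**Figure D1:**
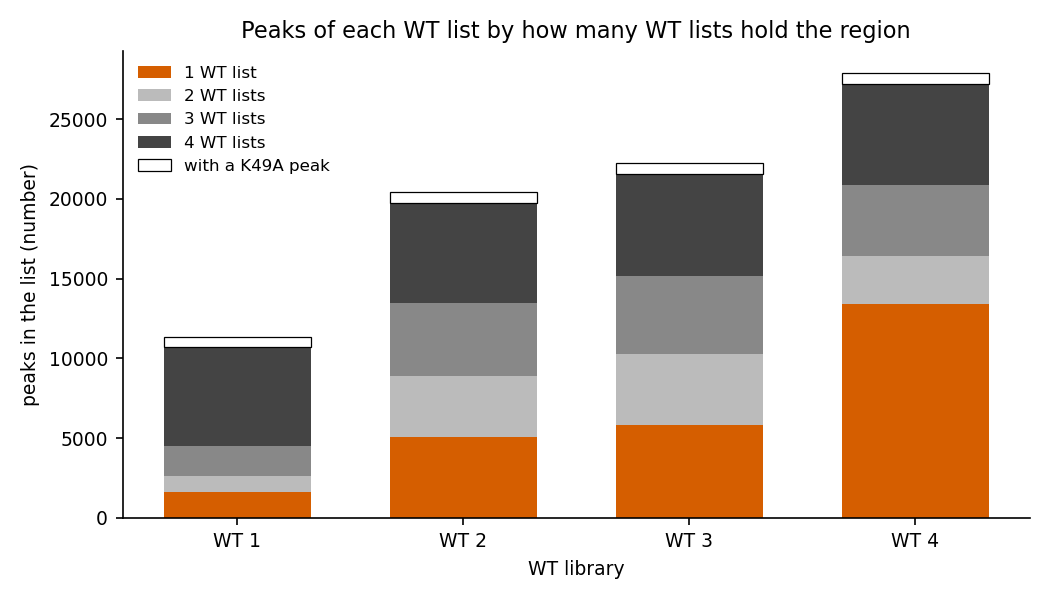
Number of peaks in each WT list, stacked by how many WT lists hold the merged region, with peaks in regions that also hold a K49A peak on top. The part found in 1 list only grows with the list, and holds 1618 peaks in WT 1 and 13423 in WT 4. The part found in 4 lists is the same 6161 regions in every library, so its even number of peaks (6272 to 6378) follows from the class.

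Regions found in more lists were fewer. There were 6113 regions in 2 WT lists, 5190 in 3 and 6161 in all 4, again without a K49A peak, and 144 regions in 1 WT list that also held a K49A peak were not counted as members. Of the regions in 2 lists, 2592 (42.4%) paired WT 2 with WT 3, against 219 (3.58%) for WT 1 with WT 2. The 2 libraries that most often shared a region were thus not the 2 longest lists, which shared 1530 regions (WT 3 with WT 4).

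Promoter sequences of a few genes are given as examples and do not stand for the class. The windows below run 250 bases before to 50 bases after an annotated start (RefSeq, GRCm38.p6), are read 5′ to 3′ along the gene, and have every CG in capitals. Vmac, Trub2 and Snx7 carry the strongest single-library region at a gene end of WT 1, WT 3 and WT 4. 1700019D03Rik and Ids have the strongest WT 1 and WT 2 regions that overlap a promoter window, and Furin has the window whose weakest peak over the 4 WT lists was the strongest; these 3 were picked after their values were seen. Tcf20, which leads the WT 2 gene ends, is not shown, since the table places its window at another start, away from the region.
Vmac: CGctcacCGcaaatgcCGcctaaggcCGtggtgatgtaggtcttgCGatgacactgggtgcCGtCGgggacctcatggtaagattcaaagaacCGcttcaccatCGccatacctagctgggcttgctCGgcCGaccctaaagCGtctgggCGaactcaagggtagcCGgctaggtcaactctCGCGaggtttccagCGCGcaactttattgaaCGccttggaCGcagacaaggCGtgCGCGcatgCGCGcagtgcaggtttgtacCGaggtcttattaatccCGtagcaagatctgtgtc
1700019D03Rik: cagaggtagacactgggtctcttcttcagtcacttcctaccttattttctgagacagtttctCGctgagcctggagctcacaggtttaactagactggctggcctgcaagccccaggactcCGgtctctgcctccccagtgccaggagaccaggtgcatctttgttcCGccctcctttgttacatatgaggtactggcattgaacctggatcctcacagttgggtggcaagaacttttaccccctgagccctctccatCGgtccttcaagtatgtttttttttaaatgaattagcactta
Ids: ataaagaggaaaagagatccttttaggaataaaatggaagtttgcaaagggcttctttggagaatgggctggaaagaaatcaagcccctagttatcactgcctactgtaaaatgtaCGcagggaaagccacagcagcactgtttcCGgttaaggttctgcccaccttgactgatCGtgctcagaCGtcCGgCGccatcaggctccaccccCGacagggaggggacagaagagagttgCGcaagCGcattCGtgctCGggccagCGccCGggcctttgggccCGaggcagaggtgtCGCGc
Trub2: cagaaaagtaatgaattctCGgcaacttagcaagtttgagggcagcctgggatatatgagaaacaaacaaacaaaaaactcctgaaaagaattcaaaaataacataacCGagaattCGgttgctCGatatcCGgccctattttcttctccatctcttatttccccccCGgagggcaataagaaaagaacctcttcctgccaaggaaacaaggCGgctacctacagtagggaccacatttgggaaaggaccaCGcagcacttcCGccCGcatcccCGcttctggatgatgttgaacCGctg
Snx7: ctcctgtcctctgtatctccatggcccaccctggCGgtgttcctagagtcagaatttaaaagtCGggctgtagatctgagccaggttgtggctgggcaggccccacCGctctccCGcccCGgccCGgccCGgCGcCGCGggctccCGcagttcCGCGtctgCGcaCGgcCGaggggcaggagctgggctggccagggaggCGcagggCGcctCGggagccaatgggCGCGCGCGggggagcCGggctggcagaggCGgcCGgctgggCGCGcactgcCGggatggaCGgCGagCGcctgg
Furin: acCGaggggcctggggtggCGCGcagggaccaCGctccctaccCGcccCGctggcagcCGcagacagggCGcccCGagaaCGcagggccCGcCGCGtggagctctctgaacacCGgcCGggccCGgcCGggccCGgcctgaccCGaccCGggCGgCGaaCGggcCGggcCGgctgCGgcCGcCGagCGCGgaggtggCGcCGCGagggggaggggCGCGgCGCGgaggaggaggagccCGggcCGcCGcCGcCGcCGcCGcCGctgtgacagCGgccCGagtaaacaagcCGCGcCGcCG
The Snx7 window (chr3:117868887-117869186, minus strand) holds 32 CG, and 207 of its bases lie in the WT 4 region. The Trub2 window (chr2:29787622-29787921, minus strand) holds 12 CG and meets the WT 3 region over 39 bases. The Ids window (chrX:70365036-70365335, minus strand) holds 16 CG, with 186 bases in the WT 2 region. The Vmac window (chr17:56717650-56717949, minus strand) holds 27 CG but lies beside the WT 1 region without meeting it. The Furin window (chr7:80402763-80403062, minus strand) holds 51 CG and was overlapped in all 4 WT lists. The 1700019D03Rik window (chr1:52947931-52948230, minus strand) holds 4 CG, with 138 bases in the WT 1 region. The 4 windows that meet a single-library region thus hold 4 to 32 CG, and Furin is an example and not an average.

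Single-library regions lay at the ends of genes less often than regions found again in every WT list. A region was counted at a gene end if it overlapped by at least 1 bp the stretch within 1 kb of either annotated end of a protein-coding gene. That held for 10.8% of the regions of WT 1 (95% exact binomial interval 9.29 to 12.4%), 14.6% in WT 2 (13.6 to 15.6%), 16.6% in WT 3 (15.6 to 17.5%) and 12.8% in WT 4 (12.2 to 13.4%). The peaks of the same libraries in regions found in 4 lists were at gene ends in 68.7, 69.8, 69.5 and 69.2%. The mean was 13.7 ± 2.48% in single-library regions and 69.3 ± 0.495% in 4-list regions (SD, n = 4 libraries), a difference of -55.6 percentage points (SE 1.04) that was negative in 4 of 4 libraries (two-sided exact paired permutation test, p = 0.125, adjusted p = 0.125 over 4 tests). With 4 libraries 0.125 is the smallest p this test can give, so 0.05 could not be reached here or in the other tests below. The 4 differences also share their comparison regions, since a 4-list region is the same place in every library. Gene-end stretches make up 2.94% of the span covered by genes and peaks. An overlap of 1 bp is met more easily by a wide region, so the midpoint is the closer measure to set beside it. Midpoints lay in these stretches in 12.3 ± 2.19% of single-library regions and 64.8 ± 0.399% of peaks in 4-list regions (SD, n = 4). The single-library regions were thus above the share of the span and below the 4-list regions.

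Strength and width differ between the classes and can move such a share. In peaks of both classes held to a −log10 q of 1.5 to 3 and a width of 250 to 500 bp, limits chosen after seeing the data, the share at gene ends was 14.3 ± 2.51% in single-library regions and 62.0 ± 7.71% in 4-list regions (SD, n = 4). The difference was -47.7 percentage points, again negative in 4 of 4 libraries (two-sided exact paired permutation test, p = 0.125). The limits did not make the classes equal. Within them the median −log10 q was 1.91 ± 0.0574 in single-library regions and 2.10 ± 0.0440 in 4-list regions (SD, n = 4). The median width was 310 ± 11.3 and 360 ± 8.43 bp. Over merged regions the share at gene ends was 13.9% with 1 WT list, 36.3% with 2, 54.5% with 3 and 72.0% with 4, so it was higher with each added list. Against regions in 2 or 3 lists the single-library regions were lower by a mean difference of -31.5 percentage points (p = 0.125 in the same exact permutation test).

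Where the annotation gives the strand, the gene-end regions could be split into starts and finishes. Outside chromosome 18, which the promoter table does not cover here, a strand was known for 82.3 ± 1.36% of the region and gene pairs of single-library regions and 81.9 ± 0.0509% of those of 4-list regions. Of these pairs, 77.5 ± 4.38% of the single-library regions met only the start and 19.2 ± 4.24% only the finish of the gene, against 94.6 ± 0.472% and 3.61 ± 0.2005% for 4-list regions (SD, n = 4). WT 4 had the lowest start share, 71.0%, and the other libraries lay between 79.2 and 80.0%. Most single-library regions at a gene end were thus at the start, with a larger part at the finish than in 4-list regions. No test was made of this split, which was looked at after the other positions.

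Gene bodies showed the same order, but this share also counts regions that lie at gene ends. The midpoint of the region lay between the ends of a protein-coding gene in 42.5, 45.9, 47.5 and 51.3% of the single-library regions of WT 1 to WT 4, and in 80.4, 79.5, 79.7 and 81.5% of their peaks in 4-list regions. The means were 46.8 ± 3.65% and 80.3 ± 0.880% (SD, n = 4), a difference of -33.5 percentage points (SE 1.63) that was negative in 4 of 4 libraries (two-sided exact paired permutation test, p = 0.125, adjusted p = 0.125). Against regions in 2 or 3 lists the difference was -17.0 percentage points (p = 0.125 in the same exact permutation test). Gene bodies cover 38.3% of the span. Of all 25963 single-library regions, 12359 (47.6%) were neither at a gene end nor in a gene body, while this held for 11.8% of the 4-list regions, 24.1% with 3 lists and 36.0% with 2. A further 10003 (38.5%) were in a gene body away from both ends, so only a minor part of the class lay near any gene end. Another 2670 (10.3%) were both at a gene end and in a gene body. Of the 4-list regions 72.0% were at a gene end, which leaves a smaller part than 38.5% in gene bodies away from ends. That part is limited by how many 4-list regions lie at gene ends. Away from gene ends, single-library regions were more often outside a gene body (47.6%) than in one (38.5%). For 4-list regions the part in a body was larger than the 11.8% outside. The body share of single-library regions was thus lower away from gene ends too.

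**Figure D2:**
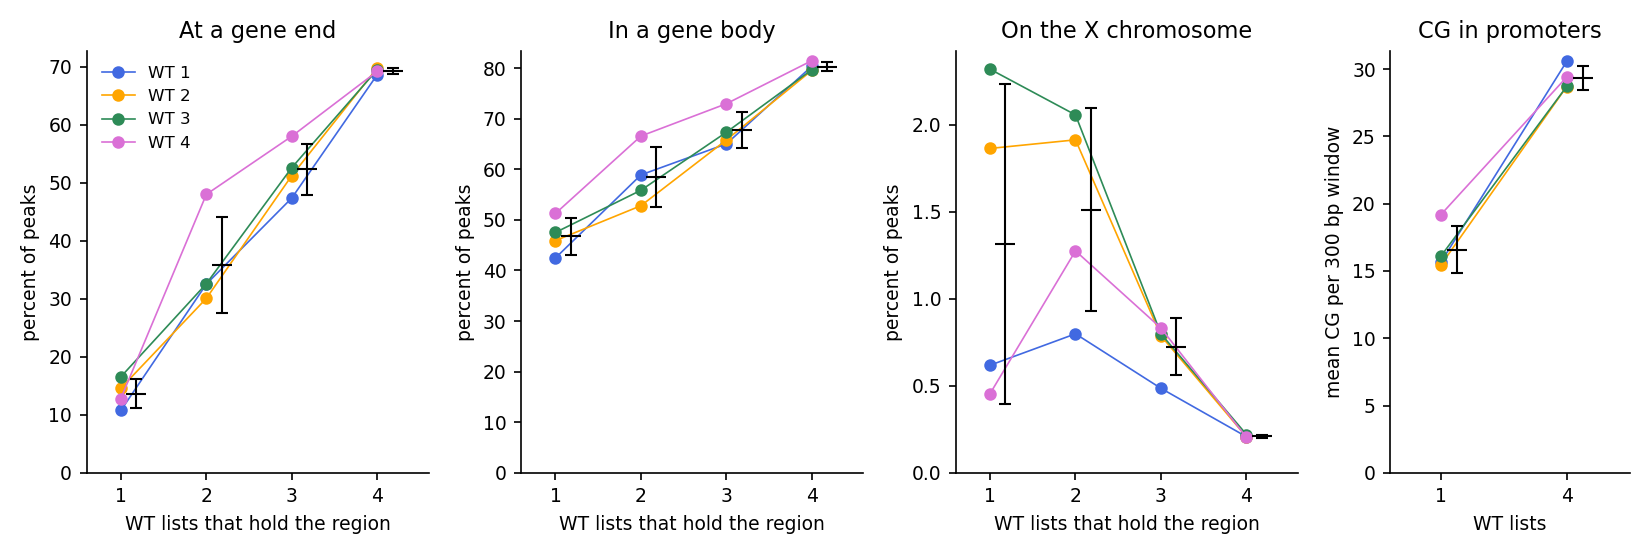
Share of the peaks of each WT library at a gene end, in a gene body and on the X chromosome, by the number of WT lists that hold the region, and mean number of CG per 300 bp promoter window for 1 and 4 lists. Coloured points are libraries, and black marks are the mean and SD over the 4 libraries; gene-end shares lie between 10.8 and 16.6% with 1 list and between 68.7 and 69.8% with 4.

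The X chromosome was poor in regions of either kind, and less so in single-library regions than in 4-list regions. In sperm each cell carries either an X or a Y, so both are present in a part of the cells. Single-library regions on X numbered 10 in WT 1 (0.618%), 95 in WT 2 (1.86%), 135 in WT 3 (2.32%) and 61 in WT 4 (0.454%). X makes up 6.34% of the span and held 0.209 ± 0.00723% of the peaks in 4-list regions, which are 13 regions. The mean in single-library regions was 1.31 ± 0.919% (SD, n = 4), a difference of 1.10 percentage points (SE 0.457) that was positive in 4 of 4 libraries (two-sided exact paired permutation test, p = 0.125, adjusted p = 0.125). WT 2 and WT 3 lay above WT 1 and WT 4, with intervals of 1.51 to 2.27% and 1.95 to 2.74% against 0.297 to 1.13% and 0.348 to 0.583% (95% exact binomial, counting error only). The X result was the least even of the 4. Against regions in 2 or 3 lists the direction held in 3 of 4 libraries (mean difference 0.238 points, p = 0.375 in the same exact permutation test). Within the limits of strength and width used above it also held in 3 of 4 (0.766 points, p = 0.375 in the same exact permutation test). In regions of 2 lists alone the X share was 1.51 ± 0.584% (SD, n = 4), above the single-library mean. It exceeded the single-library share in WT 1, WT 2 and WT 4 but not in WT 3. Among autosomes the density of single-library regions was between 8.17 per Mb on chromosome 3 and 13.3 per Mb on chromosome 11. On Y there were 29 regions.

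Promoters met by single-library regions held fewer CG than those met by 4-list regions. Promoter windows were given for 17492 of 21887 genes (79.9%), or 81.8% of the genes outside chromosome 18, and genes without one do not enter. Leaving out genes reached by both classes, the mean number of CG per 300 bp window was 15.6, 15.4, 16.1 and 19.2 for the single-library regions of WT 1 to WT 4 (70, 312, 395 and 858 windows). For 4-list regions it was 30.6, 28.7, 28.7 and 29.4. The means were 16.6 ± 1.75 and 29.4 ± 0.880 (SD, n = 4), a difference of -12.8 (SE 0.973), negative in 4 of 4 libraries (two-sided exact paired permutation test, p = 0.125, adjusted p = 0.125). WT 4 was above the other 3 libraries and below every 4-list mean. Against regions in 2 or 3 lists the difference was -7.74, and negative in every library. Without WT 4 it was -7.54, negative in every library entered, but leaving a library out changes the classes. A region of WT 4 and 1 other list then counts as single-library, and the comparison regions are those of all 3 remaining lists. With the classes kept, the difference smallest in size was that of WT 4, -10.2.

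All 21263 windows averaged 15.4 CG, and 1654 of them (7.78%) were overlapped by a single-library region. Classed by the most widely shared region at the window, 1627 single-library windows averaged 17.4 CG, against 21.1 with 2 lists, 24.0 with 3, 28.0 with 4 and 6.78 in 10735 windows with no peak. Single-library windows therefore stood close to the average of all windows, well above windows with no peak and below every class found in more lists. Short motifs were counted on both strands without regard to overlap. The GC box GGGCGG, which holds a CG itself, was in 57.8% of single-library windows, 78.4% of 4-list windows and 46.2% of all windows. The CCAAT box CCAAT was in 41.9% of single-library windows, 29.6% of 4-list windows and 38.2% of all. The TATA box TATAAA was in 6.45, 4.90 and 12.6% of the same classes of window. These are matches of letters, not bound sites.

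The calls were weak and narrow, which the rule favours. The fold, −log10 p and −log10 q of a peak are the authors' values. They are used within a list, except that leading members of gene lists, leading hairpins and the Furin window were ranked across lists. The median fold over background of single-library regions was 3.05, 2.88, 2.89 and 2.80 in WT 1 to WT 4, and 3.22, 2.98, 3.04 and 3.04 for the same libraries' peaks in 4-list regions. The median −log10 q was 1.501, 1.72, 1.81 and 1.84 in single-library regions, against 2.22, 2.42, 2.74 and 3.11 in 4-list regions, and the lists end at 1. The median width was 251, 309, 309 and 271 bp, against 528, 853, 882 and 744 bp. Between 13.1 and 23.4% of single-library regions were exactly 200 bp wide, the smallest width in the lists. The fold thus differed little between classes while q and width differed more, and none of this is independent of how the regions were chosen.

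Within a list, the share of peaks found nowhere else was lower among stronger peaks, except that in WT 2 it was 1.64% at a −log10 q of 10 and over and 1.19% at 5 to 10. At a −log10 q of 1 to 1.5 it was 28.6, 42.0, 45.9 and 68.0% in WT 1 to WT 4, and at 2 to 3 it was 7.95, 19.3, 22.4 and 49.2%. At 5 to 10 it was 0.118, 1.19, 2.47 and 6.30%. At 10 and over, 0 of 259 peaks of WT 1 and 0 of 192 of WT 3 were single-library regions (upper 95% exact binomial limits 1.41 and 1.90%), while 3 of 183 in WT 2 and 9 of 275 in WT 4 were. WT 4 lay above the other lists in every bin.

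**Figure D3:**
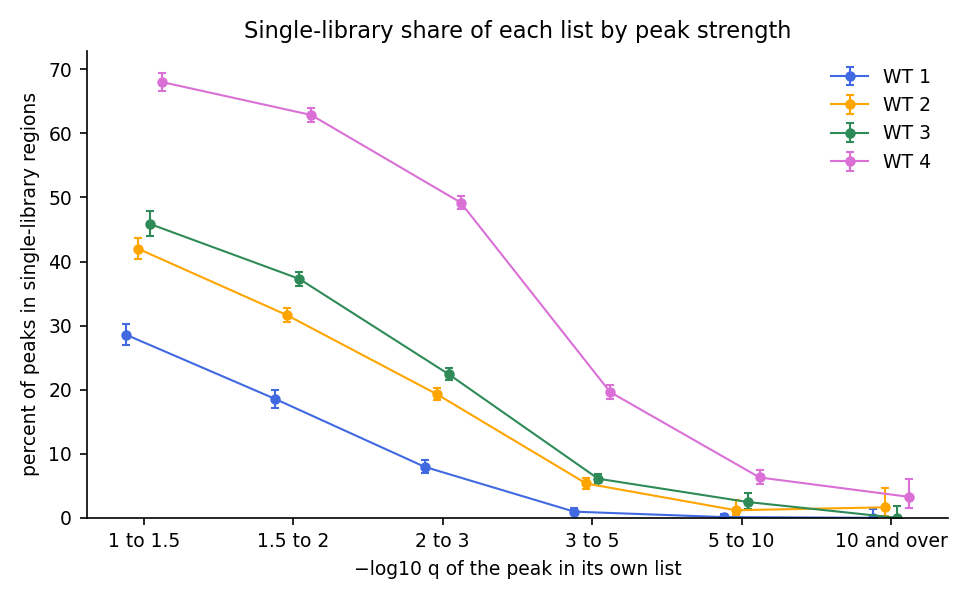
Percent of the peaks of each WT list that are single-library regions, by the −log10 q of the peak in its own list, with 95% exact binomial intervals for counting error. The share is 28.6 to 68.0% among peaks of −log10 q 1 to 1.5 and 0 to 3.27% among those of 10 and over, with WT 4 highest in each bin.

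A few single-library regions ranked among the strongest peaks of their list. In WT 2 the leading region lay inside Mef2c, a transcription factor gene of muscle and neural development, at chr13:83569286-83569506 (mm10), with a fold of 12.2 and a −log10 q of 44.1. The next lay inside Car10, a gene related to carbonic anhydrases, at chr11:93174032-93174251, with a fold of 10.4 and a −log10 q of 36.5. Another lay between genes at chr5:26349215-26349436, with a fold of 9.50 and a −log10 q of 31.9. These 3 regions were 220 to 222 bp wide, ranked above 99.58 to 99.67% of the WT 2 list, and the nearest peak of another WT library was 45247 to 73777 bp away. In WT 4 the leading region was inside Atrnl1, an attractin-like gene, at chr19:57926472-57926751, with a fold of 9.01, a −log10 q of 30.7 and 17112 bp to the nearest peak of another WT list. It was followed by a region in Sfi1, a centrosome gene, with a −log10 q of 19.2, and by one between genes on chromosome 3 with 16.2. The DNA sequence of these regions was not analysed here, so whether they hold repeats was not tested. Such calls were rare: 3 regions of WT 2 and 9 of WT 4 had a −log10 q of 10 or more.

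WT 1 and WT 3 had no region of that strength. The leading region of WT 3 was between genes on chromosome 10, with a fold of 5.09 and a −log10 q of 8.25, and its nearest other WT peak was 18821 bp away. The next, at chr10:126619330-126619714, had a −log10 q of 6.43 and a peak of another WT library only 64 bp away. The last of the 3 was in Taf4b, a TFIID subunit gene known for its role in germ cells, with 5.86 on chromosome 18. The leading regions of WT 1 had −log10 q values of 5.20 between genes on chromosome 2, 4.32 inside Plcb1, a phospholipase C gene, and 4.28 on chromosome 9. None of the 12 leading regions was at a gene end. The widest single-library region, 1895 bp in WT 2, lay in Dock1 and Insyn2a on chromosome 7, which overlap. The 5 widest measured 1719 to 1895 bp, came from WT 2 and WT 3, and had −log10 q values of 1.35 to 2.23.

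Being alone in a list did not always mean being far from other peaks. Of all single-library regions, 4374 (16.8%) had a peak of another WT library within 1 kb, and 11021 (42.4%) within 10 kb. The share within 1 kb was 26.0% in WT 1, 26.6% in WT 2, 25.5% in WT 3 and 8.30% in WT 4, and the median distance was 10296, 8414, 8313 and 19806 bp. WT 4 stood apart in both measures. Only 465 regions (1.79%) were within 1 kb of a region found in all 4 WT lists, and 2324 (8.95%) were over 100 kb from any peak of another WT list. Within their own list, 1399 (5.39%) had another peak within 1 kb.

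Regions close to a peak of another library were more often at gene ends. The gene-end share was 21.4, 22.7, 23.6 and 25.9% of those within 1 kb in WT 1 to WT 4, and 7.02, 11.6, 14.1 and 11.6% of those farther away. The means were 23.4 ± 1.88% and 11.1 ± 2.97% (SD, n = 4), with no overlap between the 2 sets of values; no test was made, since the distance follows in part from the rule. At the edge of the rule, 95 single-library regions had a gap of at most 10 bp to a peak of another WT list, the smallest being 1 bp, and 52 regions of 2 lists rested on an overlap of at most 10 bp, the smallest being 2 peaks that touch. On chromosome 10 a WT 3 region at 10746275-10746474 and a WT 4 region at 10746476-10746763 were counted as separate single-library regions for 1 base.

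**Figure D4:**
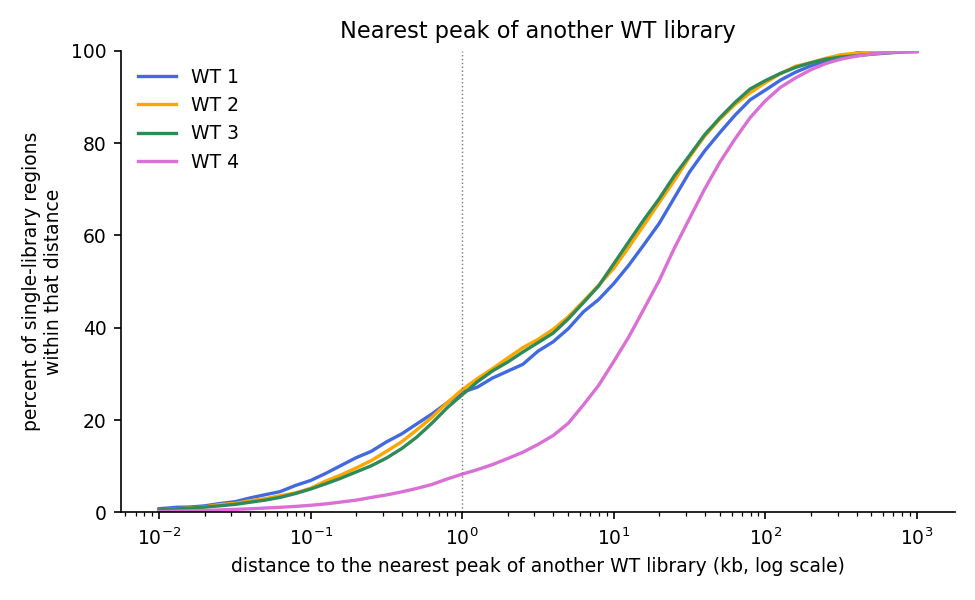
Percent of the single-library regions of each WT library whose nearest peak of another WT library lies within the distance on the x axis (kb, log scale), with 1 kb dotted. At 1 kb the curves of WT 1, WT 2 and WT 3 stand at 25.5 to 26.6% and that of WT 4 at 8.30%.

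Over genes, 3632 of 21887 protein-coding genes (16.6%) had a single-library region at an end. For 2259 genes (10.3%) it was the only gene-end peak in any of the 6 lists, and 1227 of these came from WT 4, 538 from WT 3, 412 from WT 2 and 82 from WT 1. At 415 of the 3632 genes every WT library had some peak at an end of the gene. At 325 genes regions of 2 libraries, and at 17 genes regions of 3, lay at the same gene; none had all 4.

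Adjacent regions of that kind were seen at Ccdc14, a centriolar satellite gene on chromosome 16. Across its lower end, regions of WT 2 (34690010-34690239), WT 4 (34690497-34690696), WT 3 (34690716-34691406) and WT 2 again (34691430-34691685) followed each other without overlap. Their −log10 q values were 2.16, 1.64, 1.89 and 1.69. At the shared end of Dido1, a chromatin reader gene, and Gid8, a ubiquitin ligase subunit gene, regions of WT 2, WT 3 and WT 4 lay side by side, with 1.46, 1.22 and 2.72. Zfp64, a zinc finger gene, had 4 regions of 3 libraries, spread over both ends, and Evc, a ciliary gene of Hedgehog signalling, had 3. In these genes each call was weak, and calls of different libraries stood beside each other.

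**Figure D5:**
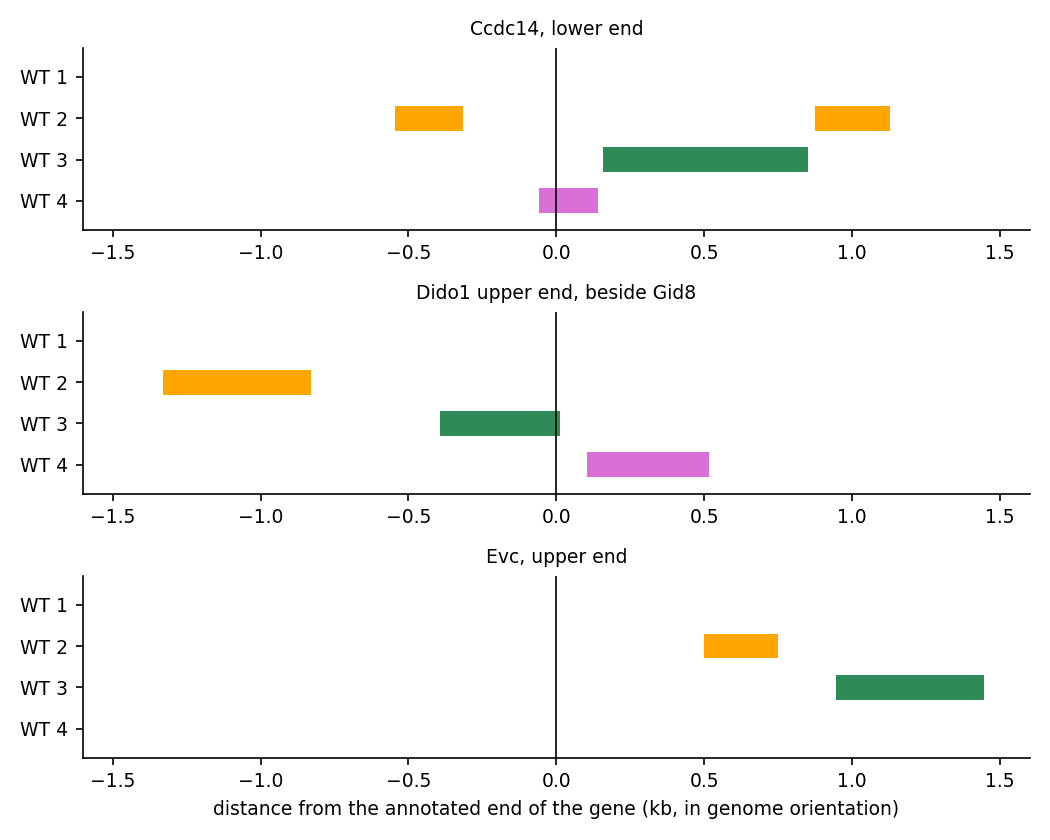
Single-library regions (bars) by WT library around 1 annotated end of Ccdc14, Dido1 and Evc, with the distance from that end in kb in genome orientation. At Ccdc14, 4 regions of 3 libraries follow each other without overlap; at Dido1, 3 regions of 3 libraries do, and at Evc the WT 4 region lies at the other end of the gene and is not drawn.

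The strongest gene-end regions belonged to genes of many roles. In WT 4 the leader was Snx7, a sorting nexin gene, whose upper end held a region of 434 bp (chr3:117868660-117869093) with a fold of 5.56 and a −log10 q of 11.7, while no other list had a peak there and the nearest other WT peak was 291755 bp away. It was followed by Srfbp1, which encodes a partner of serum response factor (8.02), Tango6, a gene of Golgi transport (7.09), Sp1, the factor that binds GC boxes (6.32), and Gbe1, the glycogen branching enzyme gene (6.15). None of these 5 had a peak of another list at either end, although a peak of another WT library lay 892 bp from the Srfbp1 region. In WT 3, 1 region at chr2:29787883-29788362 lay at an end of both Trub2, a mitochondrial pseudouridine synthase gene, and Coq4, a gene of coenzyme Q synthesis, with a −log10 q of 5.40. Another lay inside the zinc finger gene Zfp944, at its upper end and within 1 kb of the neighbouring Zfp758 (5.27), and the last named lay at Zfp426 (5.21). Trub2 also had a WT 1 peak at an end and Zfp758 a WT 4 peak, while Coq4, Zfp944 and Zfp426 had none of another list.

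In WT 2 the leaders were Tcf20, a transcriptional coregulator gene (3.86, chr15:82987727-82988130), Smc2, a condensin subunit gene (3.84), Zfp958 (3.80), Snorc, a cartilage proteoglycan gene (3.69), and 4930474N05Rik (3.60), all as −log10 q. At Smc2 a peak of another WT library lay 145 bp away, at Zfp958 172 bp away and at 4930474N05Rik 419 bp away, and each of these genes had a gene-end peak of at least 1 other list, whereas at Tcf20 and Snorc no other list had a gene-end peak. In WT 1, 1 region at chr17:56716541-56716814 was shared by Vmac, which encodes a partner of vimentin filaments, and Ndufa11, a complex I subunit gene (3.03), another by Kif5a, a kinesin gene, and Dctn2, a dynactin gene (2.94), and 1 lay at Best2, a chloride channel gene (2.97). No other list had a peak at the ends of these 5 genes.

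Gene bodies held a single-library region in 7458 of 21887 genes (34.1%), 363 of them with at least 5 and 45 with at least 10. Long genes held more regions but fewer per length, with 4.36 per 100 kb in genes under 10 kb and 0.558 in genes of 500 kb and over. The most were counted in Gm37013, with 36 regions, Gm38666, with 32, and Gm38667, with 30; these 3 overlapping entries span the clustered protocadherin stretch of chromosome 18, so they share regions and are not 3 findings. Their regions came from all 4 libraries, for Gm37013 1 of WT 1, 7 of WT 2, 12 of WT 3 and 16 of WT 4. Zfp978, in a zinc finger cluster on chromosome 4, had 19, of which 13 were of WT 4, and Ptprn2, a phosphatase-like gene of secretory vesicles, had 18. In all, 86 genes held regions of all 4 WT libraries in the body.

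Gene lists were counted by members whose only gene-end peak was a single-library region, to be read beside the 10.3% of all genes, and no test was made. The lists were chosen with earlier results known, members of clusters can share a region, and near-identical copies in the histone, zinc finger and receptor families can share reads. Clustered protocadherin genes, which encode neuronal adhesion proteins, had 15 of 57 members (26.3%), among them Pcdhb21 (−log10 q 2.70, WT 4), Pcdha11 (2.46, WT 3) and Pcdhgb6 (2.20, WT 4), and 3 of 57 had a 4-list region at an end. Genes of the piRNA pathway, which silences transposons in the germ line, had 7 of 31 (22.6%), with Pnldc1, the piRNA trimmer (3.27, WT 3), Gpat2 (2.82, WT 4) and Spocd1 (2.44, WT 4). Both lists were above the share of all genes. Imprinted genes had 11 of 66 (16.7%), led by Slc22a2 (2.22, WT 4), and Zfp zinc finger genes had 52 of 367 (14.2%), led by Zfp944 and Zfp426.

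Hox genes, regulators of position along the embryo, had 6 of 39 (15.4%), led by Hoxa9 (3.26, WT 3) and Hoxb5 (3.21, WT 3), but 16 of 39 (41.0%) had a single-library region at an end, beside 16.6% of all genes. With a median gene length of 3.74 kb, they gave 11.3 regions per 100 kb of gene body. This density was 1.26 over all genes, 4.36 in genes under 10 kb, 5.31 in ribosomal protein genes and 10.1 in canonical histone genes. Canonical histone genes had 9 of 64 (14.1%), led by H2ac18 (3.57, WT 4), and 20 of 64 (31.3%) had a region at an end. Other developmental transcription factors had 13 of 145 (8.97%), with En2 (5.10, WT 4), Cdx4 (3.33, WT 3) and Sox2 (2.97, WT 4), while 59 of 145 (40.7%) had a 4-list region, beside 22.2% of all genes. Developmental signalling genes had 4 of 85 (4.71%), led by Notch4 (2.40, WT 4), and axon guidance genes 3 of 71 (4.23%), led by Efnb1 (2.66, WT 3). In these last 3 lists 39.4 to 45.9% of the members had a 4-list region at an end.

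Other germ-cell and embryo lists, and lists of broadly used genes, had the following counts. Spermatid and sperm genes had 6 of 79 (7.59%), with Acr, the acrosin gene (3.32, WT 2), and meiotic genes 6 of 56 (10.7%), with Hormad2 (2.74, WT 3) and Tex15 (2.37, WT 4). Pluripotency and early embryo genes had 5 of 45 (11.1%), with Sox2 and Dppa5a (2.27, WT 4). Ribosomal protein genes had 10 of 84 (11.9%), led by Fau (2.87, WT 3), housekeeping genes 5 of 40 (12.5%), led by Psmb4 (3.48, WT 4), and polycomb, trithorax and DNA methylation genes 7 of 69 (10.1%), led by Phc3 (3.31, WT 4). Long neuronal adhesion and synapse genes, with a median length of 1077 kb, had 7 of 63 (11.1%), led by Cntn5 (4.45, WT 4). Of these 63 genes, 60 (95.2%) had a region in the body, at 0.465 per 100 kb. The body share was 34.1% over all genes and 90.3% over all genes of 500 kb and over, so it was near that of long genes.

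Receptor families of the nose and genes of other cell types were rarely met. Olfactory receptor genes had 14 of 1106 (1.27%), led by Olfr1361 (2.96, WT 3), and vomeronasal receptor genes 6 of 353 (1.70%), led by Vmn2r129 (3.00, WT 4). Leukocyte genes had 1 of 37 (2.70%), Cd3e (1.78, WT 2), and epididymal epithelium genes 0 of 48. The assay reads DNA, so these counts say nothing of expression or of the cells present.

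Single-library regions overlapped 24 of 1005 annotated miRNA hairpins (2.39%), and 4-list regions overlapped 48 (4.78%), where the regions themselves cover 0.337 and 0.306% of the span. The strongest was at Mir6936 (WT 4, −log10 q 5.83), and 1 region of WT 4 covered Mir24-2, Mir27a and Mir3074-2, which lie together on chromosome 8 (2.43). These hairpins were counted because the reference lists them, and the regions also cover the DNA beside them.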

How the data were processed

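MNase-seq peak lists of 6 mouse sperm libraries, 4 WT and 2 K49A, were used as deposited. Per the submitters' processing notes, FastQC, BWA, Picard, SAMtools and MACS2 were used and the build was mm10; these notes state no version, setting or input control. The authors' broad-peak files hold, for each peak, a ratio (fold over background), its −log10 p and −log10 q, and a score, which is deposited as a whole number and was not used. Every list ends at a q of 0.1, so a weak region can be enriched in a library and missing from its list. A call near this limit can also be false, and which calls are was not tested. Of the single-library regions of a library, 61.7 to 85.8% had a −log10 q under 2. Unique molecular identifiers were in the libraries, per the labels' protocols.

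Lists were merged in Python 3.11.15 with pandas 2.3.3, with the same 44743 regions from bedtools 2.31.1, and the steps were tested on simulated data. A region was placed against 21887 protein-coding genes of RefSeq (GRCm38.p6). The library was the unit, with a two-sided exact paired permutation test (16 sign flips over 4 WT libraries) and Benjamini-Hochberg adjustment over 4 tests. The background pileup was solved from fold and p as a Poisson tail for peaks of at most 400 bp. Intervals cover counting error only. The members and lists were chosen with earlier results of these data known. Named genes are the 5 leading gene ends of each library, 3 leading members of each list, the 5 leading genes by regions in the body and by libraries at the ends, and the 3 leading regions of each library and 5 widest. Alternatives were other merging gaps, stricter p and q limits, lists of equal length, coverage of a region and the K49A rule. Further ones were other gene-end windows, other comparison regions, shared limits of strength and width, and leaving out each library.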

Additional observations from a re-analysis of the deposited data

Results flagged for a closer look

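Of 41 measures compared over the 4 WT libraries, 4 had a library whose gap to the others was above the critical value of Dixon's test, which chance gives in about 1 of 20. In WT 4, 8.30% of single-library regions lay within 1 kb of a peak of another WT library, against 25.5 to 26.6% in the other libraries. Chromosome 2 held 5.87% of the single-library regions of WT 1, against 7.30 to 7.45% in the others. Chromosome 6 held 4.59% of those of WT 3, against 5.47 to 5.59% in the others. Chromosome 18 held 2.97% of those of WT 3, against 3.35 to 3.40% in the others.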

How the results depend on the processing

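No paired analysis was possible because the regions hold no K49A peak by the rule, so no value compares WT with K49A libraries of the same number. The number of single-library regions was 13998 where peaks under a −log10 q of 2 were dropped, 12851 where those under a −log10 p of 4.8 were, and 12771 with lists cut to the shortest; it was 15899 to 25452 when each WT library was left out, lowest without WT 4. Regions within 1 kb of a peak of another WT library numbered 2821 with a merging gap of 200 bp, 1064 and 982 at the q and p limits and 1268 with lists of equal length. Genes with a single-library region at an end numbered 5465 when a library had to cover 0.5 of a region. The gene-end, gene-body, X chromosome and promoter CG differences kept their sign in the mean under every alternative run. Without each WT library they were -53.4 to -42.9, -32.4 to -26.3 and 0.868 to 1.25 percentage points and -12.1 to -7.54 CG. The gene-end, gene-body and CG differences were smallest without WT 4. Leaving a library out redefines both classes over the 3 remaining lists. These values therefore do not show how far the main differences rest on the library left out. With 3 libraries the smallest p of the test is 0.25. Without WT 1 the X difference was positive in 2 of 3 libraries. The lists hold called peaks only, so enrichment below the q limit was not measured, and no number of reads stands behind a value. Of the 12 leading regions 11 were still single-library with a merging gap of 200 or 1000 bp, and of the 16 regions at the named gene ends 14 and 12 were, counts added after seeing the data.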
